A study of Homo sapiens with 6 samples.

Results

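The EGFR family comprises the receptor tyrosine kinases EGFR, ERBB2, ERBB3 and ERBB4, the ligands that bind them, and the feedback inhibitor encoded by ERRFI1. The members were taken by gene symbol: 4 receptors, 5 ligands (HBEGF, AREG, EREG, TGFA and NRG1) and 1 inhibitor, which gave 10 of the 20030 genes in the deposited table. All 10 symbols were found, each on 1 row.

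The cells were 786-O, an established human line from a clear cell renal carcinoma, at passages 16 to 18. Cells carrying a small hairpin RNA (shRNA) against YB1 (the shYB1 group) were compared with cells carrying a scrambled shRNA (the vector group). Both were stable lentiviral lines, harvested as RNA after puromycin selection, and mRNA was measured by sequencing. Each group had 3 libraries, numbered 1 to 3 in the labels, and the question was which mRNAs differ when YB1 is low.

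The series text speaks of 3 independent shRNAs with triplicates for each, whereas the labels name a single shYB1 group of 3 libraries and no hairpin. Whether these libraries carry 1 shRNA or a different one each is not given in the sources used here, and they were treated as replicates of 1 group. An effect of lowering YB1 and an effect of a hairpin on other mRNAs cannot be told apart. The labels do not say whether the replicates were separate cultures, and p-values therefore measure only the spread between these libraries, which may be technical. In bulk RNA, a change in the number of expressing cells and a change of mRNA per cell cannot be told apart.

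Ligands of the family are made as membrane-anchored precursors and released by proteases. A ligand brings receptors together in pairs, the kinase domains phosphorylate the receptor tails, and adaptors that dock there start RAS-ERK and PI3K-AKT signalling. In the kidney, EGFR is made along the nephron, and in clear cell carcinoma loss of VHL is known to raise TGFA through the hypoxia-inducible factors.

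Expression was given as FPKM, fragments per kilobase of transcript scaled to the mapped fragments of each library. Levels of different genes can be compared only roughly, because the transcript lengths used are not known here. FPKM summed over the table to between 282736 and 295887 per library. The table holds no read counts, so the depth is unknown, and low values gave only a relative depth of 0.98 to 1.09 times that of shYB1 replicate 1. Fold changes are on the log2(FPKM + 0.1) scale, which understates changes of low genes, and adjusted p is from limma with Benjamini-Hochberg adjustment over the 10439 genes whose mean reached 1 FPKM. A gene was called at an adjusted p under 0.05. Values per library are listed in the order of replicates 1 to 3.

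The targeted gene was examined first. YBX1, which encodes YB1, was at 366, 373 and 378 FPKM in vector cells, against 167, 166 and 173 FPKM in shYB1 cells. All 3 shYB1 libraries lay far below all 3 vector libraries, as their labels say. The shYB1 mean was 45.3% of the vector mean, with a log2 fold change of −1.14 (SE 0.03, limma adjusted p = 1.53e-08). Of the 50-base words in YBX1 transcripts, 30.7% occur also in transcripts of other genes, mostly the pseudogene YBX1P1, so some fragments could be assigned to either.

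Markers of the line were as its label says. PAX8, a transcription factor of the kidney epithelium, lay between 75.6 and 78.7 FPKM over the 6 libraries, the intermediate filament gene VIM between 1366 and 1450 FPKM, and KRT8 between 201 and 220 FPKM. Of the 6 kidney line markers (PAX8, PAX2, KRT8, KRT18, VIM and CDH2), 1 was called higher, against 18.7% of all genes tested, and 0 were called lower, against 6.93%. The called gene was PAX2, a log2 fold change of 0.15 (limma adjusted p = 0.0392), which after median-of-ratios scaling was 0.09 (limma adjusted p = 0.159). Markers of blood, endothelium, liver and muscle (PTPRC, CD3E, PECAM1, VWF, ALB and DES) were all under 1 FPKM, the T cell marker CD3E was listed at 0 in all 6 libraries, and the most abundant, PECAM1, was at most 0.406 FPKM. PECAM1 was at 0.406, 0.38 and 0.365 FPKM in vector cells, against 0.23, 0.278 and 0.326 FPKM in shYB1 cells. Without a filter it was not called (log2 fold change −0.36, limma adjusted p = 0.152). The groups overlapped for PTPRC, CD3E, VWF, ALB and DES.

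Across the family, 7 of 10 members passed the filter at a mean of 1 FPKM, and ERBB3, ERBB4 and NRG1 did not. HBEGF passed only through the shYB1 group, where it was higher, and so a count over the tested members includes a gene that had to differ to be tested. Of the 7 tested, 6 were called higher in shYB1 (EGFR, ERBB2, HBEGF, EREG, TGFA and ERRFI1), against 18.7% of all genes tested. None was called lower by limma, against 6.93% of all genes tested, and 0 were lower at an unadjusted p under 0.05, against 10.8% of all genes tested. Separation of the groups was counted on FPKM as deposited only, not after rescaling of the libraries. Every shYB1 library was above every vector library for the same 6 of 7 tested members, against 30.1% of all genes tested. Of the 7, 0 had every shYB1 library below, against 12.5%. No tested member met an unadjusted limma p under 0.05 with at least a 2-fold change on the log2(FPKM + 0.1) scale, which 0.22% of all genes tested met. The study's methods give the same cutoffs without naming the test beside them, so its own selection may differ.

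The direction of calls over the whole table moved with the scaling. With FPKM as deposited, 1956 genes were called higher and 723 lower, so that 73.0% of calls were higher, and the median log2 fold change was 0.055. After rescaling by median-of-ratios factors, 1192 were called higher and 1253 lower, 48.8% of calls were higher, and the median was 0.001. With this scaling 4 of the 7 tested members were called higher (HBEGF, EREG, TGFA and ERRFI1), against 11.4% of all genes tested, and 0 were called lower by limma, against 12% of all genes tested (0 at an unadjusted p under 0.05, against 18.4%). The 4 include HBEGF, which again reached the filter only through its shYB1 values.

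**Figure D1:**
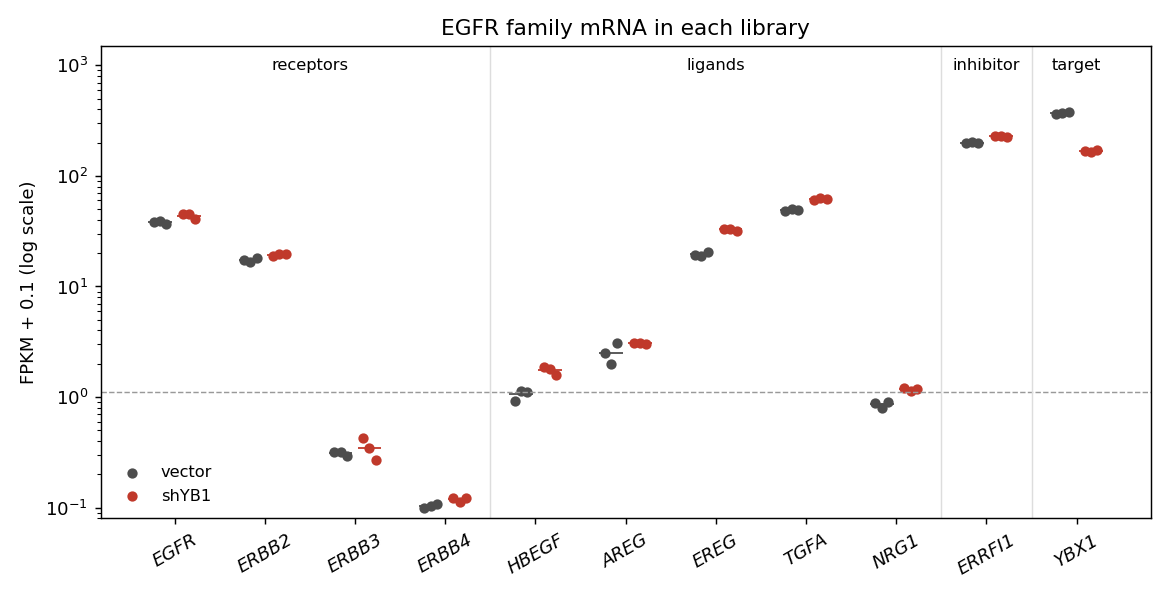
FPKM + 0.1 on a log scale for the 10 members and for YBX1 (target) in each library, with vector libraries in grey and shYB1 libraries in red; short lines are group means, and the dashed line marks the filter at 1 FPKM. EREG rose from a mean of 19.5 to 32.8 FPKM with no overlap between groups, whereas ERBB3 and ERBB4 were at most 0.322 FPKM in all 6 libraries.

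The members spanned a wide range of levels. In vector cells the order of mean FPKM was ERRFI1, TGFA, EGFR, EREG, ERBB2, AREG, HBEGF, NRG1, ERBB3 and ERBB4, and in shYB1 cells it was the same. No pair of neighbours in this order overlapped in either group. The spread between libraries does not show an error in the length used for a gene, so the order of close pairs is uncertain. The closest pair in vector cells was EREG and ERBB2, whose means differed by 1.12 times (18.9 to 20.5 FPKM against 16.7 to 18.1 FPKM). In shYB1 cells that pair stood 1.71 times apart, and the closest pair was EGFR and EREG, at 1.33 times.

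Among the receptors, EGFR was the most abundant. This receptor binds TGFA, AREG, EREG and HBEGF, and lies on the plus strand of chromosome 7 of GRCh38 from 55019021 to 55211628, with 28 exons in its representative transcript of 9821 nucleotides. EGFR was at 37.9, 39.4 and 36.5 FPKM in vector cells, against 45.0, 45.5 and 40.6 FPKM in shYB1 cells. With FPKM as deposited, the shYB1 libraries were all above the vector libraries, with replicate 3 of shYB1 closest to them. Median-of-ratios scaling divides vector replicate 2 by 0.9838 and shYB1 replicate 3 by 1.019, after which the groups overlap. Group means were 38.0 ± 1.46 FPKM (SD, n = 3) for vector and 43.7 ± 2.68 FPKM (SD, n = 3) for shYB1, a log2 fold change of 0.20 (95% interval 0.09 to 0.31, limma adjusted p = 0.0143). An exact permutation test of the means, two-sided, gave p = 0.1, the smallest that 3 libraries against 3 allow. The call was lost after median-of-ratios scaling (log2 fold change 0.15, limma adjusted p = 0.0603), without shYB1 replicate 1 (limma adjusted p = 0.0547) and without shYB1 replicate 2 (limma adjusted p = 0.0572). An antisense gene, EGFR-AS1, overlaps EGFR exons, and its fragments could not be told apart from those of EGFR without strand information, which is not given in the sources used here.

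ERBB2 has no known ligand of its own and acts as the partner of the other receptors. It lies on the plus strand of chromosome 17 from 39687914 to 39730426. ERBB2 measured 17.3, 16.7 and 18.1 FPKM in vector cells, against 18.6, 19.5 and 19.4 FPKM in shYB1 cells. The groups did not overlap, but the highest vector library and the lowest shYB1 library were close. The log2 fold change was 0.14 (95% interval 0.04 to 0.24, limma adjusted p = 0.039), and the exact permutation p was 0.1. After median-of-ratios scaling it was 0.09 (limma adjusted p = 0.164), and the call was also lost without vector replicate 1 (limma adjusted p = 0.0904), vector replicate 2 (0.121), shYB1 replicate 2 (0.118) or shYB1 replicate 3 (0.0993). MIEN1 and PGAP3 overlap ERBB2 exons on the other strand, and PGAP3 was lower in shYB1 (log2 fold change −0.25, limma adjusted p = 0.0371); their part in the ERBB2 value was not tested.

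ERBB3, a receptor for neuregulins whose own kinase is nearly inactive, was scarcely present. It was at 0.221, 0.22 and 0.191 FPKM in vector cells, against 0.322, 0.243 and 0.169 FPKM in shYB1 cells. The shYB1 libraries lay on both sides of the vector libraries, and the exact permutation p was 0.6. ERBB4, the other neuregulin receptor, was at most 0.00662 FPKM in vector and between 0.0124 and 0.0231 FPKM in shYB1 libraries. It was listed at 0 in vector replicate 1, and these are values at the floor of the table. In the fit without a filter neither was called, with log2 fold changes of 0.13 for ERBB3 (95% interval −0.30 to 0.55, limma adjusted p = 0.708) and 0.21 for ERBB4 (95% interval −0.01 to 0.43, limma adjusted p = 0.198). With 0.01 added in place of 0.1 these were 0.16 (limma adjusted p = 0.752) and 1.16 (limma adjusted p = 0.143), so that the ERBB4 value was set largely by the added amount. EGFR made up between 66.6% and 70.4% of the summed FPKM of the 4 receptors in every library, and its range in vector (66.6% to 70.0%) overlapped that in shYB1 (67.4% to 70.4%).

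Among the ligands, TGFA, which binds EGFR, was the most abundant. It lies on the minus strand of chromosome 2 from 70447280 to 70554193. TGFA was measured at 48.4, 49.7 and 49.2 FPKM in vector cells, against 60.0, 62.7 and 61.6 FPKM in shYB1 cells. The groups were well separated, with little spread within each. The vector mean was 49.1 ± 0.63 FPKM (SD, n = 3) and the shYB1 mean 61.4 ± 1.36 FPKM (SD, n = 3), a log2 fold change of 0.32 (95% interval 0.25 to 0.40, limma adjusted p = 0.00012), and 0.27 (limma adjusted p = 0.000239) after median-of-ratios scaling.

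EREG encodes epiregulin, a ligand of EGFR and ERBB4, and lies on the plus strand of chromosome 4 from 74365143 to 74388751, with 5 exons. EREG stood at 19.0, 18.9 and 20.5 FPKM in vector cells, against 33.3, 33.2 and 31.8 FPKM in shYB1 cells. Every shYB1 library was far above every vector library. The mean of the vector group was 19.5 ± 0.907 FPKM (SD, n = 3) and that of shYB1 32.8 ± 0.863 FPKM (SD, n = 3), 1.68 times apart. The log2 fold change was 0.75 (95% interval 0.65 to 0.85, limma adjusted p = 3.68e-06), and 0.69 (limma adjusted p = 3.64e-06) after median-of-ratios scaling.

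HBEGF, the heparin-binding ligand of EGFR and ERBB4, lies on the minus strand of chromosome 5 from 140332843 to 140346631. Its values were 0.822, 1.04 and 1.02 FPKM in vector cells, against 1.76, 1.69 and 1.49 FPKM in shYB1 cells. The groups did not overlap, although the level was low in both. HBEGF averaged 0.962 ± 0.122 FPKM (SD, n = 3) in vector and 1.65 ± 0.143 FPKM (SD, n = 3) in shYB1, a log2 fold change of 0.72 (95% interval 0.46 to 0.98, limma adjusted p = 0.00181). Without any filter on low values, where HBEGF did not depend on its shYB1 level to be tested, limma adjusted p was 0.00908. The size depended on the added amount, being 0.43 with 1 added to FPKM (limma adjusted p = 0.0017) and 0.77 with 0.01 added (limma adjusted p = 0.00186). HBEGF and EREG had the largest changes of the 7 tested members, and their order moved with the measure: the ratio of mean FPKM was 1.71 for HBEGF and 1.68 for EREG.

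AREG encodes amphiregulin, an EGFR ligand, and starts 79991 bases from the start of EREG on the same strand. AREG was at 2.39, 1.87 and 2.95 FPKM in vector cells, against 2.95, 3.0 and 2.90 FPKM in shYB1 cells. The shYB1 libraries were tightly grouped, but vector replicate 3 reached their level, so that the groups overlapped. The log2 fold change was 0.31 (95% interval 0.00 to 0.61) and was not called (limma adjusted p = 0.127; exact permutation p = 0.2). The value moved with single vector libraries in both directions: without vector replicate 3 the log2 fold change was 0.46 (limma adjusted p = 0.0136), and without vector replicate 2 it was 0.14 (limma adjusted p = 0.33).

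NRG1 encodes neuregulin 1, which binds ERBB3 and ERBB4. NRG1 was at 0.791, 0.698 and 0.795 FPKM in vector cells, against 1.11, 1.03 and 1.07 FPKM in shYB1 cells. All 3 shYB1 libraries were above all 3 vector libraries, but the mean over the 6 was 0.917 FPKM, under the filter. With no filter, 6 of the 10 members were called higher (EGFR, HBEGF, EREG, TGFA, NRG1 and ERRFI1), against 9.89% of the 15988 genes then tested. In that fit the log2 fold change of NRG1 was 0.45 (95% interval 0.22 to 0.67, limma adjusted p = 0.0243), a call that was lost on leaving out most single libraries (limma adjusted p from 0.0459 to 0.0781). The size depended on the added amount, being 0.24 with 1 added in place of 0.1 (limma adjusted p = 0.0202).

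The 5 ligands together summed to 71.4, 72.2 and 74.5 FPKM in vector cells, against 99.1, 102 and 98.8 FPKM in shYB1 cells. Every shYB1 sum was above every vector sum, and most of each sum was TGFA and EREG. TGFA made up 67.8%, 68.8% and 66.0% of the sum in vector cells, against 60.5%, 61.7% and 62.3% in shYB1 cells. EREG made up 26.6%, 26.2% and 27.6% in vector and 33.6%, 32.7% and 32.2% in shYB1 cells. The share of TGFA was thus lower and that of EREG higher in shYB1 cells, although both mRNAs rose.

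The 6 other ligands known to bind these receptors (EGF, BTC, EPGN, NRG2, NRG3 and NRG4) were all under 1 FPKM in every library. BTC, betacellulin, reached the highest value of these, 0.923 FPKM in vector replicate 3, while NRG2 was between 0.381 and 0.692 FPKM and EGF between 0.248 and 0.403 FPKM. EPGN, NRG3 and NRG4 were at most 0.021 FPKM. Without a filter 0 of the 6 were called by limma, against 9.89% of all genes called higher and 3.85% lower, and 0 had an unadjusted p under 0.05, against 20.4% higher and 8.46% lower.

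ERRFI1 encodes MIG6, which binds the EGFR and ERBB2 kinase domains and blocks them, and it was the most abundant member. It lies on the minus strand of chromosome 1 from 8004404 to 8026308, where an exon of AL034417.4 overlaps it on the other strand. ERRFI1 reached 197, 203 and 198 FPKM in vector cells, against 228, 231 and 224 FPKM in shYB1 cells. The groups did not overlap. It averaged 199 ± 3.44 FPKM (SD, n = 3) in vector and 227 ± 3.71 FPKM (SD, n = 3) in shYB1, a log2 fold change of 0.19 (95% interval 0.12 to 0.26, limma adjusted p = 0.00169), and 0.13 (limma adjusted p = 0.0071) after median-of-ratios scaling.

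**Figure D2:**
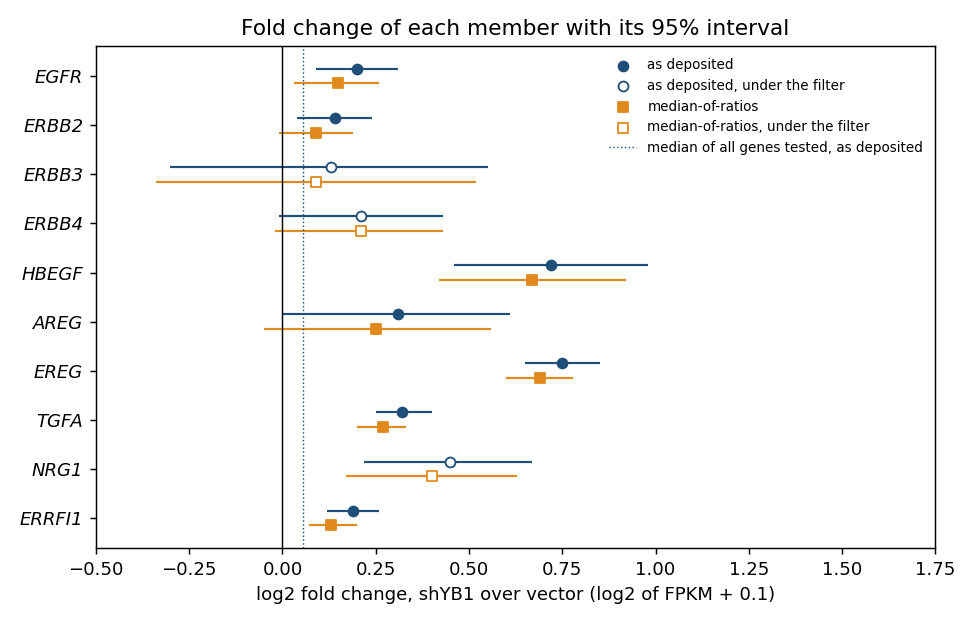
Log2 fold change (shYB1 over vector) of each member with its 95% interval from limma, with FPKM as deposited (circles) and after median-of-ratios scaling (squares); open symbols are members under the filter, from the fit without a filter, and the dotted line is the median of all genes tested, 0.055. EREG at 0.75 and HBEGF at 0.72 lie furthest to the right, and the interval of ERBB2 includes 0 after rescaling.

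Ratios between members were taken within each library on FPKM + 0.1, so that those with a low member depend on the added amount. The log2 ratio of EREG to EGFR was −0.99, −1.05 and −0.83 in vector cells, against −0.43, −0.45 and −0.35 in shYB1 cells. The ratio was higher in every shYB1 library, a mean difference of 0.55 on the log2 scale (exact permutation p = 0.1). For HBEGF to EGFR the log2 ratio was −5.37, −5.11 and −5.03 in vector and −4.60, −4.67 and −4.68 in shYB1 cells. This ratio was also higher in every shYB1 library, by 0.52 (exact permutation p = 0.1), and by 0.24 with 1 added in place of 0.1. The other 5 ratios overlapped between groups. These were ERBB2 to EGFR (mean difference −0.06), AREG to EGFR (0.11), TGFA to EGFR (0.12), ERRFI1 to EGFR (−0.01) and ERBB3 to ERBB2 (−0.02). Leaving out single libraries moved these differences. In the same order they ranged from −0.12 to 0, −0.08 to 0.29, 0.07 to 0.16, −0.05 to 0.01 and −0.2 to 0.16. After Benjamini-Hochberg adjustment over the 7 ratios the smallest adjusted exact permutation p was 0.35, and 3 libraries against 3 could not have given a call.

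**Figure D3:**
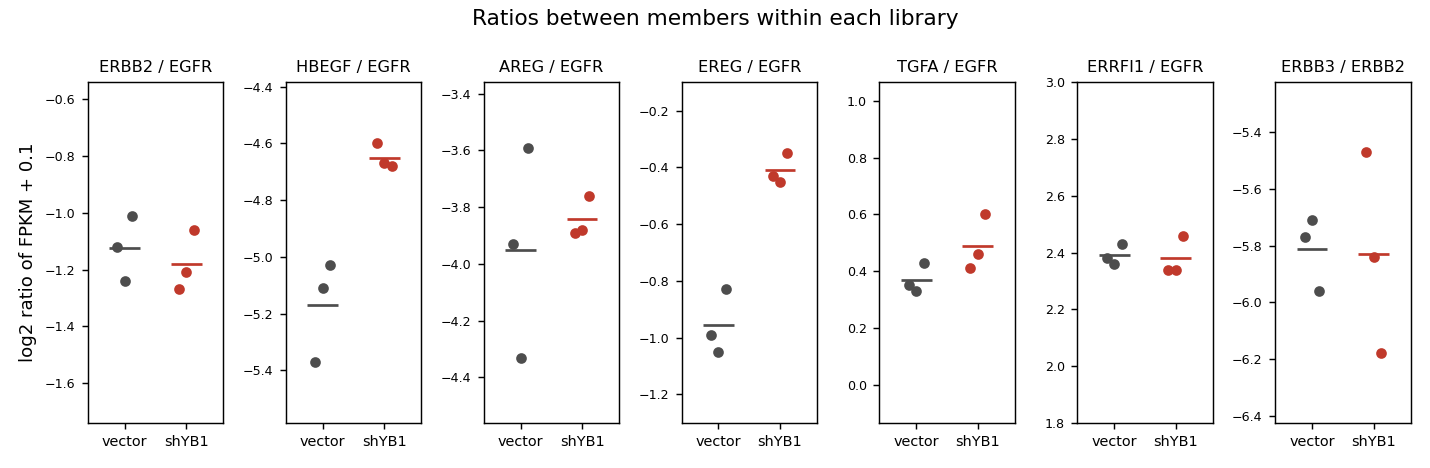
Log2 ratio of FPKM + 0.1 between pairs of members in each library, with 3 vector points (grey) and 3 shYB1 points (red) and a line at each group mean; all panels span the same number of log2 units. The groups are apart for HBEGF to EGFR and EREG to EGFR and overlap in the other 5 panels.

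YB1 is named for the Y box, an inverted CCAAT box, so the start sites were searched for CCAAT or, on the other strand, ATTGG. The windows, from RefSeq with the build GRCh38.p14, ran from 250 bases before to 50 bases after an annotated start, and 8 of the 10 members had at least 1 window (10 windows). ERBB3 and NRG1 had none. Of the 35116 windows of all genes, 34.6% held at least 1 match, and 3 of the 10 member windows did, those of EREG, ERBB2 and ERRFI1. EREG held 2 matches, and at least as many were found in 10.8% of all windows. The 250 bases before its start and before that of ERRFI1 are shown as called members with a match. The ERBB2 window overlaps an annotated ERBB2 exon, and only the bases around its match are given. Capitals mark CCAAT or ATTGG.
EREG, chr4:74364895-74365144, plus strand: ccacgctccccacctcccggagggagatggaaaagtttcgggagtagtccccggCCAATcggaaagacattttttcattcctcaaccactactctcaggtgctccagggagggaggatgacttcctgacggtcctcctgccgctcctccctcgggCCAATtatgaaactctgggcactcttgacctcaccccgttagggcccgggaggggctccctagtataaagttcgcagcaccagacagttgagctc
ERRFI1, chr1:8026310-8026559, minus strand: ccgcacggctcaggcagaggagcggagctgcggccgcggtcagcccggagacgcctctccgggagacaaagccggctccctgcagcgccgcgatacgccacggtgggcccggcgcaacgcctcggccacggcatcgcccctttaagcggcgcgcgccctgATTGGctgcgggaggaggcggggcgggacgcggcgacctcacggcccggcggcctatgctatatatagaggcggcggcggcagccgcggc
ERBB2 stretch, chr17:39687844-39687863, plus strand: catgtagATTGGctggcggg
The first bases of the EREG matches lay 196 and 95 bases before the start, that of ERRFI1 90 and that of ERBB2 243 bases before it. For ERBB2 the bases before the start used run to 39688093, past the gene start of 39687914 given above. Its match is therefore closer to that gene start than to the start used. EGFR, HBEGF and TGFA, also called higher, had no match in their windows. A match describes letters only, and binding was not measured here.

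Genes around the receptors were described by fixed lists, each beside the 18.7% of all genes called higher, the 6.93% called lower and the median log2 fold change of 0.055. At an unadjusted p under 0.05 the shares of all genes were 28.2% higher and 10.8% lower. Ligand shedding had 5 of 6 genes tested (ADAM10, ADAM17, RHBDF1, RHBDF2 and FRMD8; TIMP3 was under the filter), with 0 called higher and 0 lower by limma (1 higher and 1 lower at an unadjusted p under 0.05) and a median of −0.06. After median-of-ratios scaling the proteases ADAM10 (−0.13, limma adjusted p = 0.0385) and ADAM17 (−0.19, limma adjusted p = 0.024), which release ligands of the family from the membrane, were called lower, against 12% of all genes tested. Of the receptor brakes and ubiquitin ligases, 10 of 12 were tested and 0 were called in either direction by limma (3 higher and 0 lower at an unadjusted p under 0.05), with a median of 0.12. After median-of-ratios scaling 0 were called, and the median was 0.06. At an unadjusted p under 0.05, 0 were then higher and 1 lower, against 1885 higher and 1917 lower of all 10439 genes. CBL, the ligase that tags activated EGFR, had a log2 fold change of 0.17 (limma adjusted p = 0.122).

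Of the docking and adaptor proteins, 10 of 12 were tested, 2 were called higher, 1 was called lower, and the median was 0.01. The adaptor CRK was higher by 0.25 (limma adjusted p = 0.00282) and the EGFR substrate EPS8 by 0.19 (limma adjusted p = 0.0182), which was 0.14 (limma adjusted p = 0.0785) after median-of-ratios scaling. PTPN11, the phosphatase SHP2 that carries signals from receptors to RAS, had a log2 fold change of −0.14 (limma adjusted p = 0.0365). Of 12 genes of receptor endocytosis and sorting, all tested, 1 was called higher, 0 lower, and the median was 0.06. It was RAB7A, which directs late endosomes to lysosomes, at 0.12 (limma adjusted p = 0.0165), a call lost after median-of-ratios scaling (0.07, limma adjusted p = 0.111).

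Genes induced by receptor signalling moved in both directions. Of 11, 10 were tested, 7 were called higher and 3 lower, and the median was 0.32. Transcripts called higher included the ETS factors ETV4 (0.53, limma adjusted p = 0.00149) and ETV5 (0.52, limma adjusted p = 0.000106) and the AP-1 subunit FOSL1 (0.49, limma adjusted p = 2.86e-05). The ERK phosphatase DUSP6 (0.36, limma adjusted p = 0.0016), PHLDA1 (0.29, limma adjusted p = 0.000199), and the inhibitors SPRY2 (0.38, limma adjusted p = 0.000546) and SPRED1 (0.22, limma adjusted p = 0.0242) were higher as well. Lower were the immediate-early genes FOS (−0.41, limma adjusted p = 7.74e-06), IER3 (−0.21, limma adjusted p = 0.00066) and EGR1 (−0.12, limma adjusted p = 0.0205). After median-of-ratios scaling 6 were called higher, against 11.4% of all genes tested, and 3 lower, against 12%, SPRED1 being lost (0.17, limma adjusted p = 0.0653). SPRY4 was under the filter, at 0.131 to 0.155 FPKM in vector and 0.236 to 0.27 FPKM in shYB1 libraries.

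The deposited table assigns 85 genes to the KEGG ErbB signaling pathway, among them 9 of the 10 members (all but ERRFI1). Of these genes 61 were tested, 14 were called higher and 4 lower, with a median of 0.05. The 14 include the family members EGFR, ERBB2, EREG, HBEGF and TGFA and the adaptor CRK, all counted above. HBEGF reached the filter only through its shYB1 values. The count is therefore not separate from that of the family. After median-of-ratios scaling 9 were called higher and 8 lower, with a median of −0.01, where 11.4% of all genes tested were called higher and 12% lower. The 5 called genes with the largest change were EREG and HBEGF, given above, the small GTPase HRAS (0.38, limma adjusted p = 0.00353), the kinase ERK1 gene MAPK3 (−0.36, limma adjusted p = 0.000798) and the kinase ABL2 (0.34, limma adjusted p = 0.0079). HRAS was at 6.68, 5.80 and 6.99 FPKM in vector and 8.59, 8.25 and 8.45 FPKM in shYB1 cells. MAPK3 was at 26.3, 24.6 and 27.7 FPKM in vector and 19.6, 20.6 and 21.0 FPKM in shYB1 cells. Neither gene overlapped between groups.

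**Figure D4:**
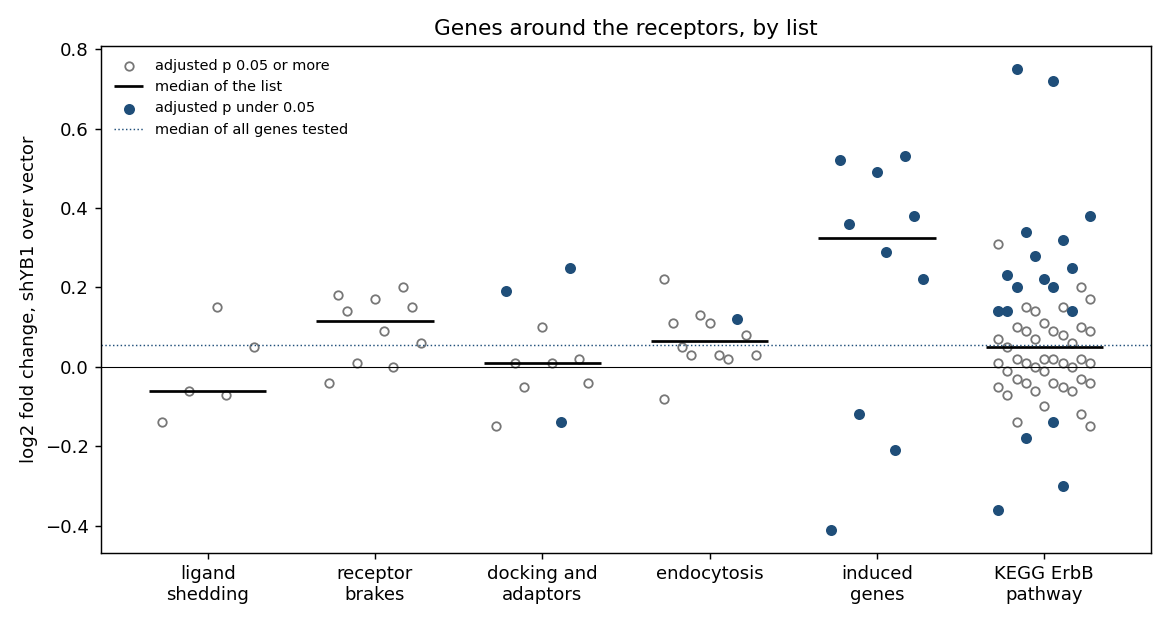
Log2 fold change (shYB1 over vector) of each tested gene in 6 fixed lists, with filled points at a limma adjusted p under 0.05, a bar at each list's median and a dotted line at the median of all genes tested, 0.055. Of the induced genes 7 lie above 0 and 3 below, all filled, while the shedding and brake lists hold no filled point.

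The genes most like the leading receptor and the leading ligand across the 6 libraries were taken by Pearson correlation of log2(FPKM + 0.1), as a description. For EGFR these were RNF182 (r = 0.9995), LRP12 (r = 0.9964) and TAF9B (r = 0.9942). RNF182 was at 1.59, 1.76 and 1.48 FPKM in vector and 2.30, 2.36 and 1.84 FPKM in shYB1 cells, with shYB1 replicate 3 lowest of its group, as for EGFR. For TGFA they were HNRNPA2B1 (r = 0.9995), RIPK1 (r = 0.9994) and NOLC1 (r = 0.9975). With 6 libraries in 2 groups, genes that differ between the groups tend to correlate, and why these ones do was not tested.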

How the data were processed

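The authors deposited FPKM per gene for 6 libraries of 786-O cells, 3 vector and 3 shYB1, and 0 other per-library columns were left unused. The submitters' processing notes name Trimmomatic, HISAT2, Cufflinks, HTSeq, DESeq and GRCh38, without versions or roles. The control columns were read as the vector group, the only other group in the labels. Depth per library is unknown, so no counting interval was computed.

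Log2(FPKM + 0.1) of genes whose mean reached 1 FPKM was fitted with limma 3.58.1 in R 4.3.3 (lmFit, eBayes with trend and robust prior), as a two-sided test with p-values adjusted over all tested genes by Benjamini-Hochberg, and the step was tested on simulated data. Single members and ratios were compared by two-sided exact permutation tests, for which 3 against 3 cannot go below 0.1. Python 3.11.15, NumPy 2.4.6, pandas 2.3.3 and matplotlib 3.10.9 were used for the rest. Positions and shared 50-base words are from GENCODE release 29, matched by RefSeq accession where possible. Promoter windows are from RefSeq.

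The members and the lists (other ligands, ligand shedding, receptor brakes, adaptors, endocytosis, induced genes, KEGG ErbB signaling pathway, cell markers) were chosen with earlier results of these data known. Named genes were all members, YBX1, the other ligands, every called gene of the fixed lists, the 5 called KEGG genes with the largest change, and the 3 genes most correlated with the leading receptor and ligand. Other list genes were named after their values were seen, and a marker gene of the lists is not reported here. Alternatives were pseudocounts of 1 and 0.01, no filter, a filter at 5 FPKM, median-of-ratios and common-total (TPM) scaling, a prior without trend, the replicate block and each library left out in turn.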

Additional observations from a re-analysis of the deposited data

How the results depend on the processing

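Of the 7 members that passed the filter, 4 to 7 were called higher on leaving out each library in turn. Of all 10439 genes tested, 1323 to 1944 were then called higher. By limma 0 members were called lower in every alternative. EREG, HBEGF, TGFA and ERRFI1 were called higher under every setting in which they were tested. Over all genes, median-of-ratios scaling gave 1192 higher and 1253 lower in place of 1956 and 723; no other setting moved either count by more than 1.5 times, and leaving out single libraries gave 1323 to 1944 higher and 513 to 606 lower. EGFR lost its call also with a prior without trend (limma adjusted p = 0.0513), and ERBB2 with that prior (0.0737) and with no filter (0.0676). ERBB3, fitted without a filter as an alternative chosen after seeing the data, had a log2 fold change of 0.13 that turned to −0.03 without shYB1 replicate 1 (range over single libraries left out, −0.03 to 0.29). The number of ratios with groups apart, 2, was 2 to 4 on leaving out single libraries, with 4 only without vector replicate 3, and the HBEGF to EGFR difference was 0.24 with a pseudocount of 1. Members with groups apart numbered 8 of 10 (ERBB4, at the floor of the table, among them), and 8 to 10 on leaving out single libraries. Of all tested genes, 30.1% had every shYB1 library above and 12.5% every one below. These shares cover only genes that passed the filter, with all 6 libraries, so that neither count of members has a matching share.

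In the fixed lists, median-of-ratios scaling gave 1 higher and 2 lower for adaptors, 0 higher and 1 lower for endocytosis, 2 lower for ligand shedding, and 9 higher and 8 lower for the KEGG pathway, against 11.4% higher and 12% lower of all genes tested; with no filter 0 adaptors were lower, against 3.85% of all genes. The cause was not tested.

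With the replicate number as a replicate block, 6 members were called higher and 0 lower, and over all genes 2074 were higher and 760 lower. The numbers did not pair the libraries: same-number correlations of deviations from the group means were −0.169, −0.059 and −0.00824. NRG1, likewise fitted without a filter, had a limma adjusted p of 0.0532 with the block.

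Groups of 3, an unknown depth and FPKM without counts limit what can be told of members near or under 1 FPKM.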

Other observations

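EREG, AREG, EPGN and BTC lie together on chromosome 4, within 486214 bases, in a stretch chosen for a closer look after the values were seen. Within 1 Mb on either side the deposited table holds 24 protein-coding genes, of which 10 were tested, 1 was called higher (EREG), against 18.7% of all genes tested, and 5 were called lower, against 6.93%. The 5 were the chemokine genes CXCL8 (log2 fold change −0.35, limma adjusted p = 0.000104), CXCL1 (−0.55, limma adjusted p = 8.81e-05), CXCL5 (−0.47, limma adjusted p = 3.09e-05), CXCL3 (−0.42, limma adjusted p = 0.0433) and CXCL2 (−0.19, limma adjusted p = 0.00369), which recruit neutrophils. CXCL8 was at 136, 138 and 134 FPKM in vector replicates 1 to 3 and at 108, 110 and 103 FPKM in shYB1 replicates 1 to 3. CXCL1 was at 60.6, 57.9 and 57.1 FPKM in vector and 38.5, 38.2 and 43.6 FPKM in shYB1 replicates 1 to 3. Both chemokines were lower in every shYB1 library, while EREG, between them and AREG, was higher in every one. On the far side of AREG, BTC was under 1 FPKM in every library, and RCHY1 (0.07, limma adjusted p = 0.63), THAP6 (0.01, limma adjusted p = 0.979) and G3BP2 (−0.01, limma adjusted p = 0.82) were not called.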
